A study of Drosophila melanogaster with 8 samples.

Results

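Immune-induced short peptide genes are a set of 8 Drosophila melanogaster genes, IM1, IM2, IM3, IM4, IM14, IM23, Listericin and CG16713. They were found by their gene names in the per-library tables, which list 17494 genes, and all 8 were present. The set was proposed with the levels of these same libraries in view, so the members were chosen by their mutant against WT difference in TPM and by how they vary together. Both are therefore given as descriptions, and no test is read from them. The libraries are 4 from CG9005 mutant embryos and 4 from wild type (WT) embryos. Each holds polyA RNA of macrophages, also called hemocytes, the phagocytes of fly blood, sorted by fluorescence from embryos collected for stage 11 at 29°C. The labels describe the macrophages of both genotypes as 3xMcherry-tagged, and the sort took mCherry-positive cells. The sources used here give neither the mutant allele of CG9005 nor the promoter that drives the tag. The labels name no infection or other immune challenge.

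The Toll and Imd pathways switch on secreted peptides in fly immunity through NF-κB transcription factors, and the fat body is their main source after infection, with blood cells as another. IM stands for immune-induced molecule, a name given to peptides that appear in the blood of infected adults. IM1, IM2, IM3 and IM23 are Bomanins, small secreted peptides induced by Toll that are needed for resistance to many fungi and bacteria. IM4 and IM14 are the Daisho peptides, Toll targets known for a role against filamentous fungi. Listericin is an antibacterial peptide named for its action on Listeria, and its induction has been tied to the JAK-STAT pathway and the receptor PGRP-LE. CG16713 encodes a predicted Kunitz-type protease inhibitor.

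Levels are in transcripts per 1000000 (TPM), the authors' deposited values, which scale reads by gene length and library total. Comparisons between genes therefore depend on the annotated lengths. Reads per gene were recovered from the TPM values and the exon lengths, and the libraries held 16612859 to 18306169 reads in the mutant and 15782570 to 18942786 reads in WT. A gene at 0 held no read, and with counting error alone its expected count may still have been up to 3 reads. CG9005 itself had 75.0, 103, 94.0 and 84.3 TPM in the mutant libraries (replicates 1 to 4), against 72.9, 79.3, 114 and 84.5 TPM in the WT libraries, so its RNA level does not check the labels. Of 19 macrophage markers 18 were above 0 in some library, all but eater, a gene of later blood cells, and they summed to 7378 to 9084 TPM in the mutant and 5726 to 9411 TPM in WT. The scavenger receptor gene Sr-CI was called higher and the fate regulator gcm2 lower in the mutant (limma, adjusted p of 0.000818 and 0.0429). In bulk samples, fewer cells of a type and less RNA per cell cannot be told apart.

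The short Bomanins IM1, IM2 and IM3 stood at 11.7 to 70.0 TPM in the mutant and at 0 to 14.3 TPM in WT. IM1 (BomS1, FBgn0034329, 2R:18383949-18384378, plus strand, build BDGP6) had 41.9, 70.0, 11.7 and 21.0 TPM in mutant replicates 1 to 4, against 3.05, 5.50, 0 and 0 TPM in WT replicates 1 to 4. Every mutant library lay above every WT library, and the 2 WT libraries at 0 held no read of the gene. The means were 36.1 ± 25.8 TPM in the mutant and 2.14 ± 2.66 TPM in WT (SD, n = 4 each), a ratio of 16.9 and a difference of 3.75 (SE 0.68) on the log2(TPM + 1) scale. The SE here and below is limma's, which draws on the spread of other genes, and no test of a member is read from it. For IM1 it is smaller than the gene's own spread would give, with an SD on that scale of 1.09 in the mutant and 1.39 in WT. These levels rested on 58 to 326 reads per mutant library and at most 27 reads per WT library.

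IM2 (BomS2, FBgn0025583, 2R:18386602-18387030, plus strand) had 29.2, 56.8, 20.7 and 23.0 TPM in the mutant libraries, against 9.74, 1.40, 0 and 6.38 TPM in the WT libraries. The groups did not overlap here either, with 20.7 TPM in the lowest mutant library against 9.74 TPM in the highest WT library. Its mean was 32.4 ± 16.6 TPM in the mutant and 4.38 ± 4.50 TPM in WT (SD, n = 4 each), a log2 difference of 3.05 (SE 0.65). IM3 (BomS3, FBgn0040736, 2R:18387895-18388734, plus strand) had 23.0, 55.7, 18.3 and 29.6 TPM in the mutant libraries, against 14.3, 1.62, 0.599 and 0 TPM in the WT libraries. WT replicate 1 held 160 reads of IM3, close to the 193 reads of mutant replicate 3, while the other WT libraries held 17 or fewer. Its mean was 31.6 ± 16.7 TPM in the mutant and 4.13 ± 6.82 TPM in WT (SD, n = 4 each), a log2 difference of 3.40 (SE 0.71). These 3 genes are related in sequence, and reads that could belong to more than 1 of them were not analysed here.

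IM23 (BomBc1, FBgn0034328, 2R:18382704-18383235, minus strand), a Bomanin of the bicipital type, was the lowest member in the mutant. It had 1.66, 12.6, 6.24 and 5.20 TPM in the mutant libraries, against 0, 0, 2.17 and 0 TPM in the WT libraries. The groups overlapped, because mutant replicate 1, with 10 reads, lay below WT replicate 3, with 11 reads. The means were 6.42 ± 4.55 TPM in the mutant and 0.542 ± 1.08 TPM in WT (SD, n = 4 each), a log2 difference of 2.25 (SE 0.55).

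**Figure D1:**
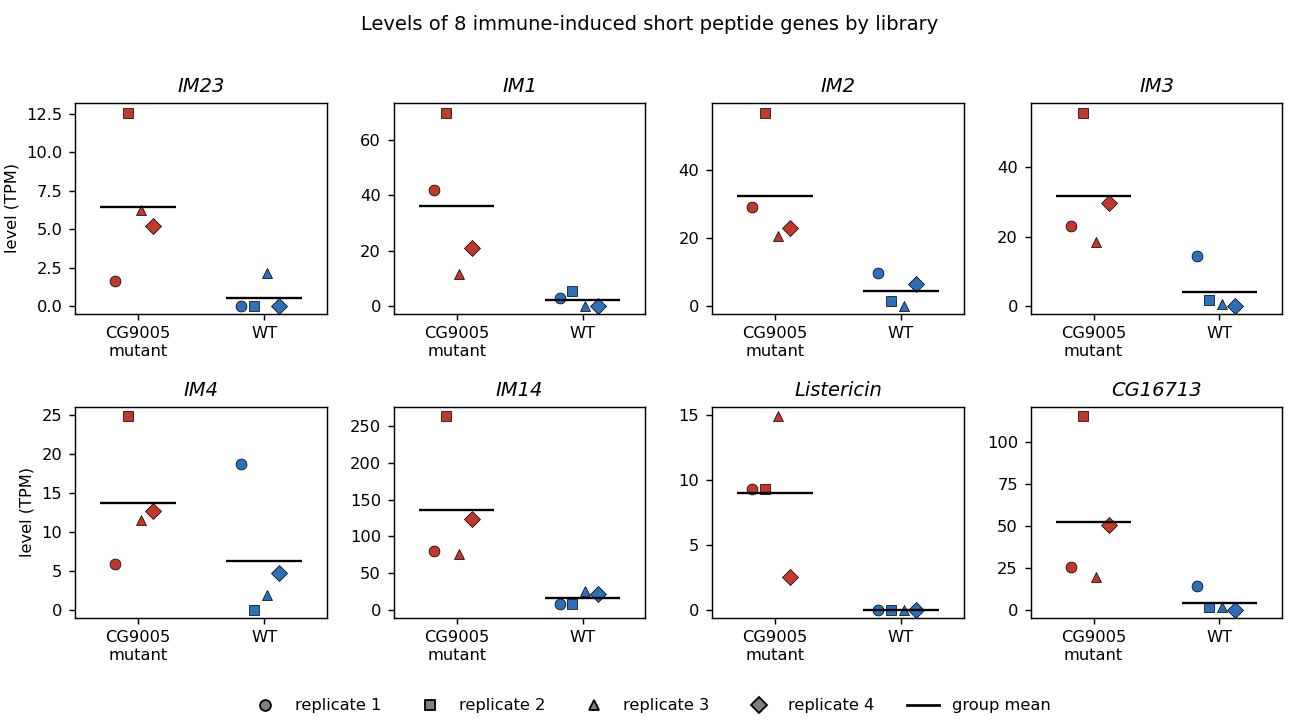
Levels of the 8 peptide genes in TPM (y axis, from near 0, each panel on its own scale) in the CG9005 mutant libraries and the WT libraries, 1 symbol per library with its shape giving the replicate number, and the group mean as a bar. Mutant replicate 2 was the highest mutant library for every gene but Listericin, and only IM4 and IM23 overlap between the genotypes.

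The 4 Bomanin members lie in a cluster of 10 Bomanin genes on 2R:18381393-18390629, 9.24 kb in all. Of the other 6 genes of the cluster, 4 were at 0 in more than 4 of the 8 libraries. IM23 and IM1 lie 713 bases apart, IM1 and IM2 2223 bases apart, and IM2 and IM3 864 bases apart. Summed over the 6 other genes, the level was 23.4, 45.8, 10.6 and 35.0 TPM in the mutant libraries, against 13.9, 0.188, 1.89 and 0.113 TPM in the WT libraries. The sums overlapped through WT replicate 1. CG15065 (BomS5) was the most abundant of the 6, with 5.69, 30.2, 9.71 and 34.5 TPM in the mutant libraries, against 12.6, 0, 0 and 0 TPM in the WT libraries. It was the only 1 of the 6 that passed the filter on low values, and its log2 difference of 3.13 (SE 0.85) did not pass the test (limma, adjusted p = 0.120, Benjamini-Hochberg over all tested genes). It passed in 1 of 16 other settings, without WT replicate 1, with a log2 difference of 4.07 and an adjusted p of 0.00785 (limma).

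The remaining cluster genes stood at 6.07 TPM or less in each library. CG15067 (BomBc2) had 3.05, 5.23, 0.924 and 0.503 TPM in the mutant libraries, against 0, 0, 0 and 0.113 TPM in the WT libraries. CG18107 (BomS4) had 4.69, 6.07, 0 and 0 TPM in the mutant libraries, against 0.979, 0, 0 and 0 TPM in the WT libraries. These genes overlap on opposite strands, and the sources used here do not say whether the counting used strand, so their values are uncertain. CG15068 (BomS6) reached 5.48 TPM in the mutant and 0.347 TPM in WT. CG16836 (BomT2) was above 0 in 1 library, mutant replicate 1, at 4.45 TPM. CG43202 (BomT1) was at 0 in every mutant library and reached 1.89 TPM in WT replicate 3. IM1, IM2 and IM3 together held most of the cluster's summed TPM in each mutant library.

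**Figure D2:**
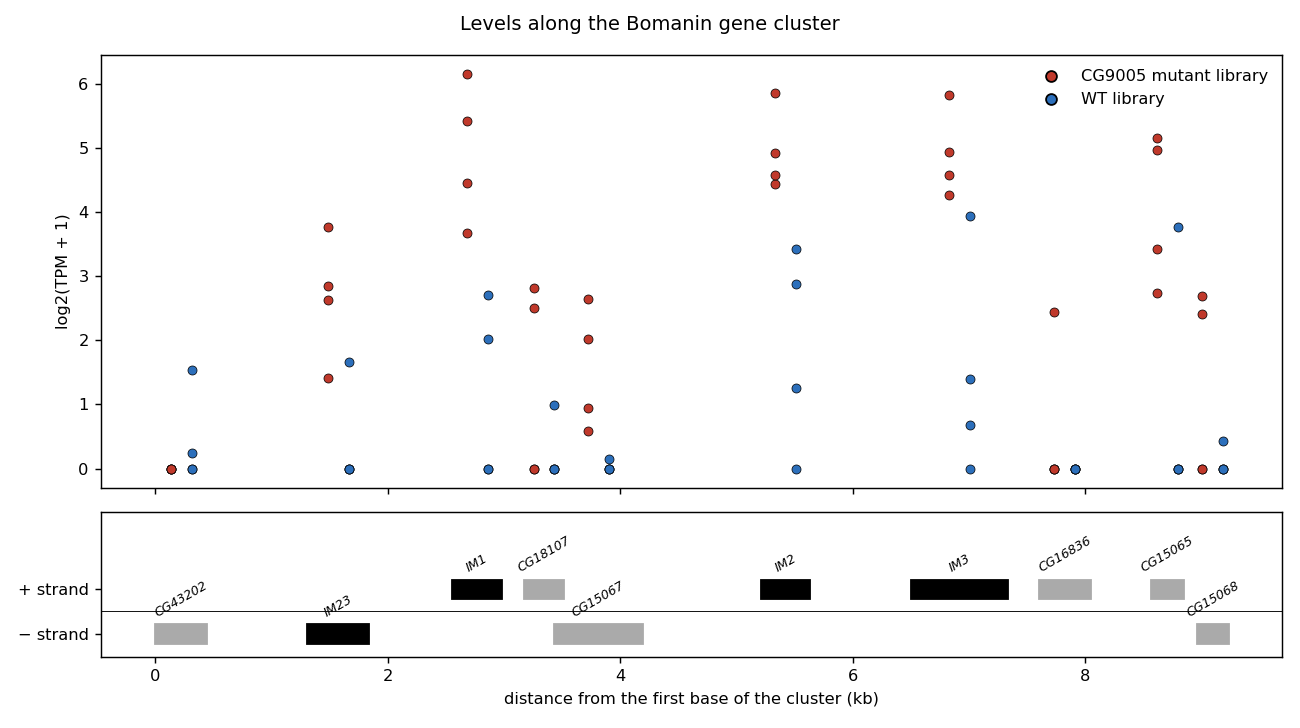
Upper panel, log2(TPM + 1) of each of the 10 Bomanin genes (y axis) in each CG9005 mutant library and each WT library, placed at the gene's position in kb from the first base of the cluster (x axis); lower panel, the genes by strand, with the 4 described members in black and the 6 others in grey. IM1, IM2 and IM3 stand at 11.7 to 70.0 TPM in the mutant libraries, and 4 of the 6 other genes are at 0 in more than 4 of the 8 libraries.

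The Daisho genes IM4 and IM14 are neighbours, 1070 bases apart on opposite strands, and differed in both level and overlap. IM14 (Dso2, FBgn0067905, 2R:20870392-20870678, plus strand) was the highest member in both genotypes. It had 79.6, 263, 75.6 and 124 TPM in the mutant libraries, against 7.71, 7.58, 26.0 and 21.3 TPM in the WT libraries. The groups stood well apart, and IM14 was the only member above 0 in every WT library. Its mean was 136 ± 87.9 TPM in the mutant and 15.7 ± 9.46 TPM in WT (SD, n = 4 each), a ratio of 8.66 and a log2 difference of 3.04 (SE 0.47).

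IM4 (Dso1, FBgn0040653, 2R:20868496-20869321, minus strand) had 5.96, 24.8, 11.6 and 12.7 TPM in the mutant libraries, against 18.7, 0, 1.92 and 4.73 TPM in the WT libraries. WT replicate 1, with 209 reads, lay above 3 of the 4 mutant libraries, so the groups overlapped. The means were 13.8 ± 7.95 TPM in the mutant and 6.35 ± 8.49 TPM in WT (SD, n = 4 each), a log2 difference of 1.64 (SE 0.76). That difference was 0.94 without WT replicate 2 and 2.38 without WT replicate 1. Per length, IM14 exceeded IM4 in every mutant library, while in WT replicate 1 the order was the other way round.

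Listericin (FBgn0033593, 2R:11241745-11242194, minus strand) had no read in any WT library. It had 9.30, 9.30, 14.9 and 2.54 TPM in the mutant libraries, against 0, 0, 0 and 0 TPM in the WT libraries. In reads these were 54, 54, 92 and 16 in the mutant, so each mutant library was above the floor of 3 reads. The mutant mean was 9.02 ± 5.06 TPM (SD, n = 4), and 3 reads in each WT library would give a WT mean of 0.525 TPM. The mutant mean was 17.2-fold that value. This ratio takes in the counting error of the WT zeros alone. It leaves out the spread between mutant libraries, the lowest of which stood at 2.54 TPM. Listericin was the only member whose highest mutant library was replicate 3, and its lowest was replicate 4. The gene lies 377 kb from CG9005 on the same chromosome arm, closer than any other member, as the Bomanin members are 6742 to 6747 kb away and the Daisho genes 9228 and 9229 kb.

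CG16713 (FBgn0031560, 2L:3695032-3695411, minus strand) is the only member on another chromosome arm. It had 25.3, 115, 19.5 and 50.4 TPM in the mutant libraries, against 14.0, 2.04, 1.70 and 0 TPM in the WT libraries. The groups did not overlap, although WT replicate 1 came close to mutant replicate 3. The means were 52.5 ± 43.7 TPM in the mutant and 4.43 ± 6.42 TPM in WT (SD, n = 4 each), a ratio of 11.9 and a log2 difference of 3.67 (SE 0.75). IM33, another immune-induced peptide gene, lies 0.806 kb from it. It had 112, 531, 88.3 and 209 TPM in the mutant libraries, against 60.5, 0.964, 20.8 and 47.2 TPM in the WT libraries. Its groups did not overlap, and its log2 difference of 3.28 (SE 0.95) did not pass the test (limma, adjusted p = 0.146).

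In the mutant the order of the mean levels was IM14, CG16713, IM1, IM2, IM3, IM4, Listericin and IM23. No 2 neighbours in that order had ranges apart. The order depends on the exon lengths, 769 bases for IM3 and 767 for IM4 against 361 for IM1 and 367 for IM2. In mean reads per mutant library, IM3 with 323 stood above IM1 with 171 and IM2 with 157. IM14 exceeded CG16713 in 4 of 4 mutant libraries and IM3 exceeded IM4 in 4 of 4, while IM1 exceeded IM2 in 2 of 4, IM4 exceeded Listericin in 2 of 4 and Listericin exceeded IM23 in 2 of 4. In WT the order was IM14, IM4, CG16713, IM2, IM3, IM1, IM23 and Listericin, again with no neighbours apart. IM4 differed most in rank, being sixth in the mutant and second in WT. Together the 8 genes summed to 216, 607, 179 and 269 TPM in the mutant libraries, against 67.5, 18.1, 32.4 and 32.5 TPM in the WT libraries. All 8 were above 0 in each mutant library, and 6, 5, 5 and 3 of the 8 in WT replicates 1 to 4.

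The libraries of 1 genotype differed widely. Mutant replicate 2 was the highest mutant library for 7 members, and the lowest mutant library was replicate 3 for 5 members, replicate 1 for 2 and replicate 4 for 1. Between the highest and the lowest mutant library the level differed 2.75-fold for IM2, the least, and 7.59-fold for IM23, the most. In WT, replicate 1 was the highest for IM2, IM3, IM4 and CG16713, replicate 2 for IM1, and replicate 3 for IM14 and IM23. The SD of log2(TPM + 1) was 0.64 to 1.12 in the mutant, and in WT it ranged from 0 for Listericin, which had no reads, to 1.80 for IM4.

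With the genotype mean removed, the members did not move as 1 block across the 8 libraries. Over their 28 pairs the Pearson r of the deviations had a median of 0.05 and ran from -0.34 to 0.95, with 15 pairs above 0. Without Listericin, whose WT deviations are all 0, the median over 21 pairs was 0.23. All pairs share the same libraries, and many WT values are 0, so these are descriptions only. IM3 and IM14 had an r of -0.26 but were alike in the mutant. There IM3 deviated by -0.32, 0.92, -0.63 and 0.03 in replicates 1 to 4, and IM14 by -0.57, 1.14, -0.64 and 0.07. Listericin, at 0.23, 0.23, 0.86 and -1.31, differed from both. No r was computed within 1 genotype. The closest pair was IM3 and CG16713, which lie on different chromosome arms, with an r of 0.95 and a Spearman rho of 0.93. Without the 2 libraries farthest from the median of IM3, WT replicates 1 and 4, the r was 0.90. IM2 and IM4 had an r of 0.71, also without the 2 libraries farthest from the median of IM2, WT replicates 1 and 3. IM1 and IM3 had an r of 0.65. Without the 2 libraries farthest from the median of IM1, WT replicate 2 and mutant replicate 3, it was 0.79. The second gene of a pair had no part in which libraries were left out. By contrast, the r of 0.72 between IM14 and IM23 fell to 0.12 without mutant replicate 2 and WT replicate 3, so it rests on those libraries. Other pairs moved as well. Without WT replicates 1 and 3, the r of IM2 and IM3 went from 0.54 to -0.06, and that of IM2 and IM14 from -0.06 to 0.88. Without mutant replicate 2 the median r over all 28 pairs was -0.06.

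**Figure D3:**
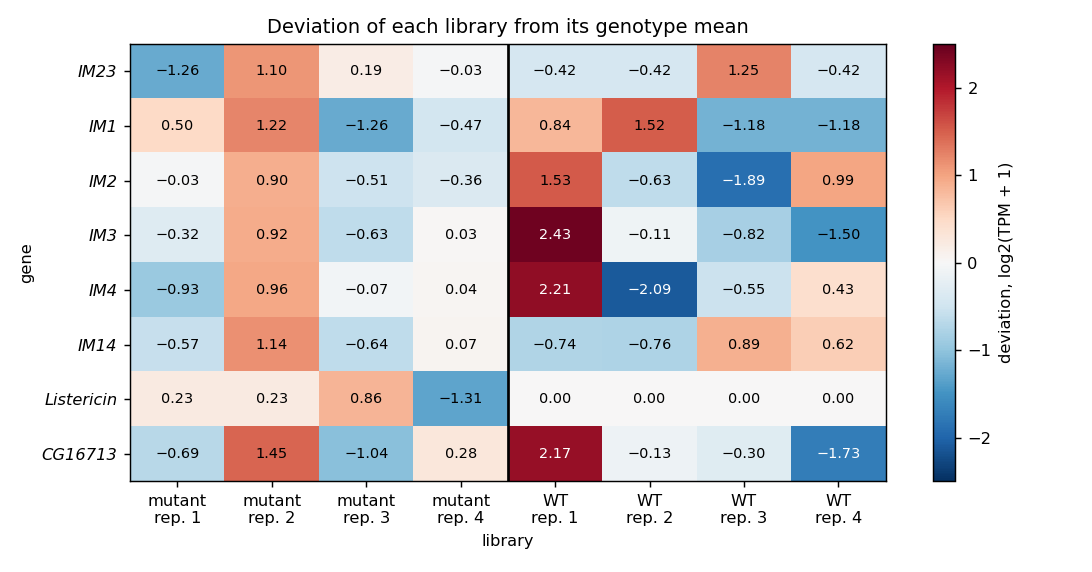
Deviation of log2(TPM + 1) from the genotype mean for each peptide gene (rows) in each library (columns, CG9005 mutant then WT), on a colour scale with the value printed in each cell. The column of mutant replicate 2 is above 0 for all 8 genes, while WT replicate 1 is high for IM2, IM3, IM4, CG16713 and IM1 and below 0 for IM14 and IM23.

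The genes outside the set whose deviations followed the members' mean deviation most closely were CG42673 (r = 0.97), fon (0.94), Cog3 (0.93), RpL15 (0.93) and CG13641 (0.91), with a sixth, FBgn0010877, at 0.90, out of 7819 tested genes that are no members, over 8 libraries. The Spearman rho was lower for each, at 0.79, 0.40, 0.71, 0.24, 0.66 and 0.60. Their levels did not share 1 direction between the genotypes. The blood clotting gene fon had 23.8, 126, 17.2 and 36.8 TPM in the mutant libraries, against 22.3, 4.29, 3.36 and 4.08 TPM in the WT libraries. Its log2 difference of 2.41 (SE 0.64) did not pass the test (limma, adjusted p = 0.111). The gene passed in 1 of 17 other settings, without WT replicate 1, at 2.97 with an adjusted p of 0.0454 (limma). CG13641 had 4.72, 32.2, 5.52 and 14.0 TPM in the mutant libraries, against 3.17, 0, 0 and 0 TPM in the WT libraries, and rose by 3.03 on the log2 scale (limma, adjusted p = 0.0409), a call that was lost in 11 of 16 other settings. CG42673 was lower in the mutant by value, with a log2 difference of -1.24 that did not pass the test (limma, adjusted p = 0.148). It passed in 1 of 16 other settings, voom on recovered reads, at -1.73 with an adjusted p of 0.0471. Some genes further down the same ranking were singled out after their values were seen. The macrophage markers vkg and Col4a1, which encode collagen IV chains, had an r of 0.86 (rank 19) and 0.81 (rank 53). The fat body marker apolpp had an r of 0.67 (rank 231), and the peptide genes CG15065 and IM33 had 0.74 (rank 114) and 0.62 (rank 314). No r is given here for the other macrophage markers, and that list's summed level was lowest in WT replicate 1, at 5726 TPM. The part of macrophages and fat body cells in the members' spread was not tested.

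Across all genes, 131 of the 7827 that passed the filter differed between the genotypes at an adjusted p under 0.05 (limma), or 1.67%, of which 0.882% were higher and 0.792% lower in the mutant. The filter asked for at least 1 TPM in at least 4 libraries. All 8 members passed it, and only IM14 would have passed on its WT libraries alone, so the others entered through the genotype in which they are high. Of the 8, 6 were past that threshold and 2, IM4 and IM23, were not. Likewise 6 had every mutant library above every WT library, against 3.25% of tested genes, and 0 had every mutant library below every WT library, against 4.52%. As the contrast chose the members, nothing is read from these counts. The number past the threshold also moved with the fit, from 6 to 0 with limma's voom on recovered reads, for which 1.13% of tested genes passed. The direction did not reverse for any member in the other settings that gave it a value, 17 for 6 members and 16 for IM23 and Listericin, which the filter of 10 TPM removed. The members' median log2 difference, 3.10 here, ran from 2.91 to 4.75. With the stage field of the labels as a covariate, the single differences ran from 1.37 for IM23 to 6.57 for IM1. That field counts up library by library in sample order, so this fit is no adjustment for embryo age. The median over all tested genes was -0.06. In the authors' deposited table, in which 0.579% of 11058 genes passed and 0.353% passed as higher in the mutant, the log2 fold changes were 5.37 for IM1, 4.01 for IM2, 4.95 for IM3, 2.95 for IM4, 3.23 for IM14, 4.92 for IM23, 6.52 for Listericin and 4.72 for CG16713, and only Listericin passed.

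**Figure D4:**
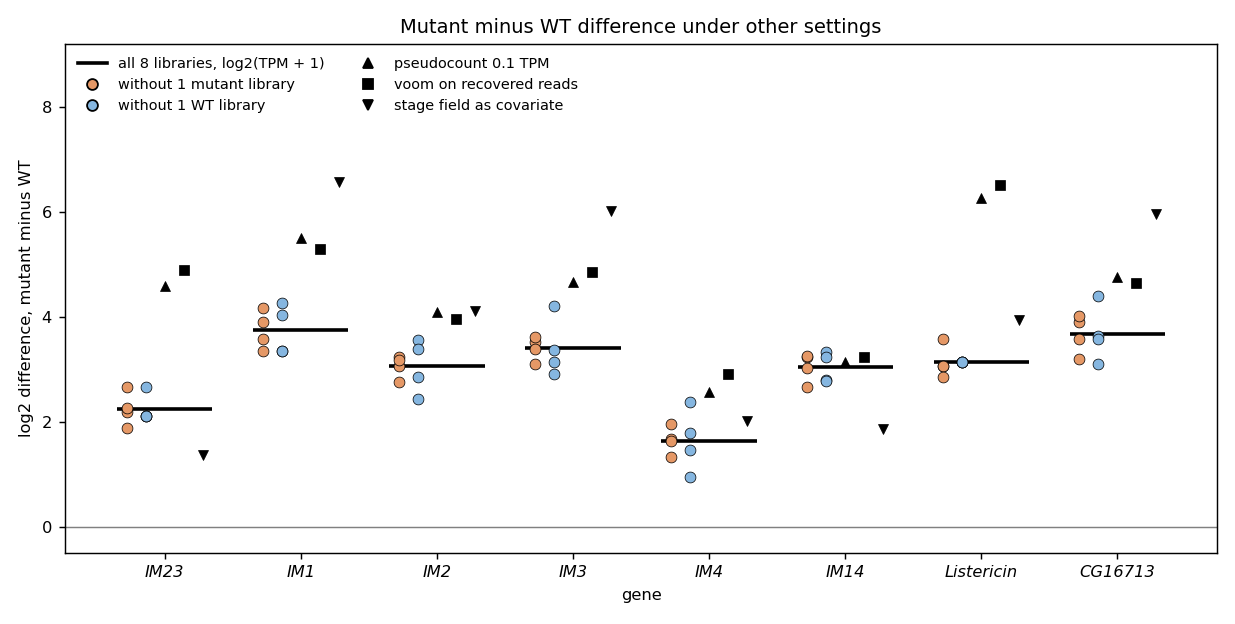
Mutant minus WT difference of each peptide gene on a log2 scale (y axis) with all 8 libraries (bar), without each mutant or WT library in turn (circles) and under 3 other settings (black symbols). No symbol lies below 0, and the pseudocount of 0.1 TPM and voom give larger differences for genes with WT libraries at 0, such as Listericin at 6.27 and 6.50.

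Of the genes of humoral immunity in 5 lists, 50 passed the filter and 2 were called, or 4%, against 1.67% of all tested genes. Besides the members, 16 other induced short peptide genes were measured, and 2 passed the filter, IM33 and CG15065, neither past the test (limma, with 2 at an unadjusted p under 0.05). Of these 16, 3 were at 0 in every library. Among 22 antimicrobial peptide genes, 10 were at 0 in every library, 4 passed the filter, and 0 were called (limma, with 1 at an unadjusted p under 0.05). The antifungal peptide gene Drs, a standard readout of Toll, had 4.01, 3.20, 0 and 5.18 TPM in the mutant libraries, against 0.355, 0, 0 and 1.67 TPM in the WT libraries, with an adjusted p of 0.409 (limma). The summed level of these antimicrobial genes was 12.9 to 23.5 TPM in the mutant and 7.11 to 30.2 TPM in WT. The groups overlapped.

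Toll pathway genes, from recognition proteins to the transcription factors, were measured for 24 names. Of these, 18 passed the filter and 0 were called (limma, 1 at an unadjusted p under 0.05), with 13 above 0 and 5 below and a median log2 difference of 0.21. The gene with the smallest p was PGRP-SD, which encodes a secreted peptidoglycan sensor. It had 12.4, 2.69, 3.24 and 8.73 TPM in the mutant libraries, against 0, 0, 0 and 3.58 TPM in the WT libraries, a log2 difference of 2.20 (SE 0.59, limma, adjusted p = 0.115). It passed in 1 of 16 other settings, without WT replicate 4, at 2.75 with an adjusted p of 0.0261 (limma). The ligand gene spz and the protease gene Hayan had log2 differences of 0.80 and 0.94, with adjusted p of 0.502 and 0.521 (limma).

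Imd pathway genes were measured for 23 names, and 17 passed the filter, with 0 called higher and 1 called lower. The gene called was casp, a negative regulator of Imd signalling, with 36.9, 38.1, 31.5 and 31.8 TPM in the mutant libraries, against 55.4, 57.3, 54.8 and 55.6 TPM in the WT libraries. Its groups were far apart, and it fell by 0.68 (SE 0.15) on the log2 scale (limma, adjusted p = 0.0456), a call that was lost in 15 of 17 other settings. The signalling genes imd and Tab2 had log2 differences of -0.57 and -0.88 and did not pass (limma, adjusted p of 0.362 and 0.214). PGRP-SB1, a peptidoglycan-cleaving enzyme, had a log2 difference of 1.06 and an adjusted p of 0.423 (limma).

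JAK-STAT genes and the stress-induced, secreted Turandot genes were measured for 18 names, of which 9 passed the filter, with 0 called higher and 1 called lower. TotF, a Turandot gene, had 0.307, 5.05, 0 and 3.82 TPM in the mutant libraries, against 27.9, 11.5, 11.7 and 26.1 TPM in the WT libraries. Every mutant library lay below every WT library, the opposite order to that of the non-overlapping members, and TotF fell by 2.92 (SE 0.59) on the log2 scale (limma, adjusted p = 0.0347). That call was lost in 12 of 17 other settings. Socs36E, a target and inhibitor of JAK-STAT, had 138, 114, 117 and 135 TPM in the mutant libraries, against 77.5, 85.6, 98.6 and 103 TPM in the WT libraries, with an adjusted p of 0.179 (limma). The receptor gene dome and the transcription factor gene Stat92E had log2 differences of -0.37 and -0.29, with adjusted p of 0.598 and 0.757 (limma). With voom on recovered reads, 0 genes of these 5 lists were called.

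**Figure D5:**
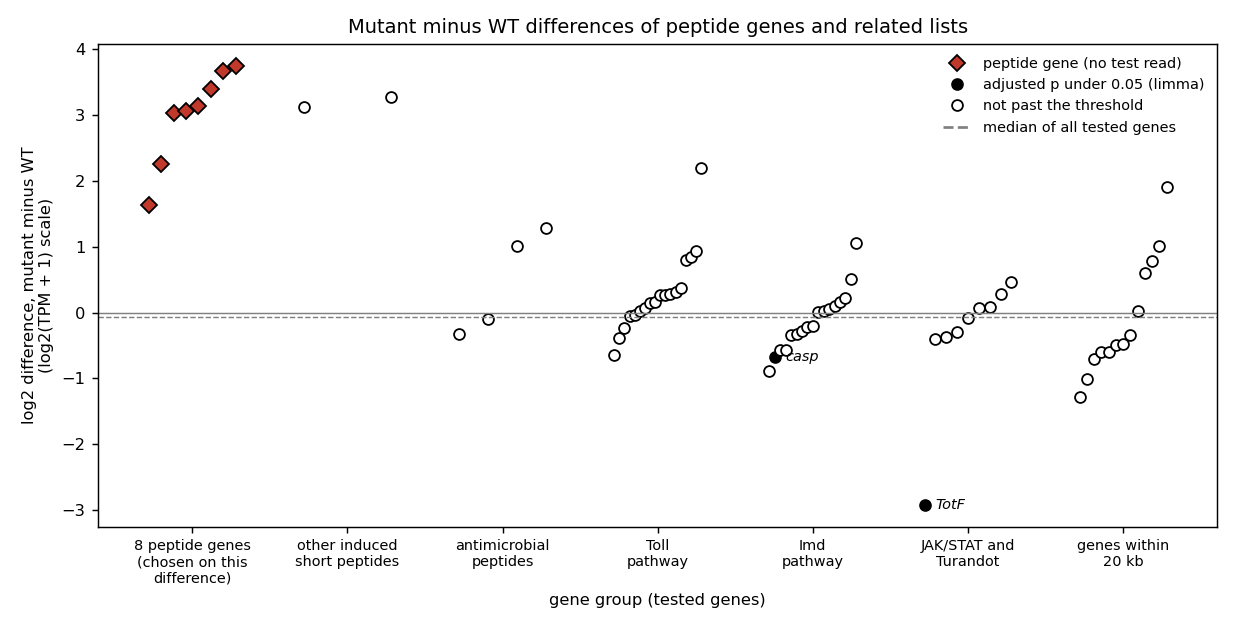
Mutant minus WT difference on the log2(TPM + 1) scale (y axis) for the 8 peptide genes (red diamonds, no test read), the tested genes of 5 immune lists and the tested genes within 20 kb of a member (x axis), with filled circles for an adjusted p under 0.05. Only casp and TotF are filled, both below 0, and IM33 and CG15065 lie in the range of the members without passing.

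Within 20 kb of a member, 60 genes outside the lists were measured, 23 were at 0 in every library and 13 passed the filter, and 0 were called (limma, 5 at an unadjusted p under 0.05; voom, 0), with a median log2 difference of -0.47. The nearest tested genes on either side of the Bomanin cluster were sbb, 24.1 kb away, with a log2 difference of -0.22, and GstE1, 7.76 kb away, with 0.61 (limma, adjusted p of 0.819 and 0.697). Around the Daisho pair, insc at 32.5 kb and Act57B at 73.3 kb had log2 differences of -0.88 and 1.04 (limma, adjusted p of 0.223 and 0.312). Beside Listericin, CG34224 at 4.10 kb averaged 35.0 ± 16.7 TPM in the mutant and 80.7 ± 22.0 TPM in WT (SD, n = 4 each), with a log2 difference of -1.28 (limma, adjusted p = 0.108). On its other side, TpnC47D, a troponin C gene of muscle at 31.7 kb, averaged 21.5 ± 8.10 TPM in the mutant and 3.66 ± 2.85 TPM in WT (SD, n = 4 each). It rose by 2.39 (SE 0.47) on the log2 scale (limma, adjusted p = 0.0315), and lost the call in 12 of 16 other settings. Near CG16713, for at 38.1 kb had a log2 difference of -0.35 (limma, adjusted p = 0.773).

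Markers of other cell types were set beside these levels. The fat body list, the tissue that makes most of these peptides in infected adults, had 3 of 15 genes tested and 0 called (limma, 0 at an unadjusted p under 0.05; voom, 0). The 3 tested genes, svp, apolpp and Apoltp, had log2 differences of 0.53, 0.83 and 0.70, above 0 without passing the test (limma, adjusted p of 0.614, 0.540 and 0.538). The list's summed level was 12.7 to 57.4 TPM in the mutant and 10.9 to 30.5 TPM in WT, with mutant replicates 2 and 4 highest at 57.4 and 51.2 TPM. Most of that sum was apolpp, which encodes the main blood lipid carrier, with 17.8, 44.6, 8.59 and 37.5 TPM in the mutant libraries, against 21.7, 7.45, 10.7 and 13.2 TPM in the WT libraries. The fat body genes Fbp1, Lsp2 and Adh were at 0 in all 8 libraries. Whether fat body cells of this stage express them was not examined, so the zeros do not tell if such cells were present. The muscle list summed to 77.3 to 148 TPM in the mutant and 39.5 to 55.4 TPM in WT, without overlap. Of its 7 tested genes, 5 had a log2 difference above 0 and 2 below, and 1 was called. That gene was HLH54F, a transcription factor needed for longitudinal visceral muscle, with 70.7, 35.4, 32.9 and 29.1 TPM in the mutant libraries, against 3.76, 4.50, 3.59 and 0.299 TPM in the WT libraries (log2 difference 3.51, limma, adjusted p = 0.00251). With HLH54F left out, the summed levels of the muscle list overlapped between the groups. The crystal cell list summed to 418 to 544 TPM in the mutant and 458 to 842 TPM in WT, and PPO1, a prophenoloxidase gene of these cells, fell by 1.88 on the log2 scale (limma, adjusted p = 0.00278). The gut list summed to 15.8 to 27.9 TPM in the mutant and 20.1 to 45.0 TPM in WT, and the neuron and glia list to 138 to 154 TPM in the mutant and 110 to 162 TPM in WT. The epidermis, cuticle and trachea list summed to 9.73 to 20.3 TPM in the mutant and 13.0 to 33.1 TPM in WT, and the germline and yolk list to at most 3.56 TPM in the mutant and 3.69 TPM in WT. Of the tested genes in those 4 lists 0 were called (limma, 1 at an unadjusted p under 0.05; voom, 0). The part of these other cells in the levels of the peptide genes was not tested.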

How the data were processed

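PolyA RNA of sorted embryonic macrophages was sequenced in 8 libraries with reads of 50 bp, per the labels' protocols. The authors deposited 1 TPM column per library. Per the submitters' processing notes the build was BDGP6 and the tools were HTSeq 0.5.4p3, STAR 2.5.1b, R 3.4.4, limma and edgeR, with no strand setting in the sources used here. Log2 fold changes and p-values of the authors' own comparison were deposited in 4 identical tables, and 1 of them was read.

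Groups came from the sample titles. The genotype field is the same for both groups. A developmental stage field runs over 15 to 18 for mutant libraries and 11 to 14 for WT libraries, so it cannot be told apart from genotype. It has a different value for each library, rising in sample order, while the growth protocol gives stage 11 for every library. No label says whether replicates were collected separately, so the p-values cover only sample-to-sample spread, possibly technical.

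TPM multiplied by union exon length (Ensembl release 115) gave whole reads, within 0.05, for 98.8% to 99.0% of genes above 0. Limma 3.58.1 in R 4.3.3 was run on log2(TPM + 1) with an intensity trend, for the 7827 genes that reached 1 TPM in 4 or more libraries (3 of 7 with 1 left out), with Benjamini-Hochberg adjustment over all of them and a threshold of 0.05. Differences are mutant minus WT on that scale, which understates changes of low genes. Each SE is limma's, with the gene's spread drawn towards that of other genes. The script was tested on simulated data. The reads' floor is 3 per library and covers counting error only.

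The members and the lists were chosen with earlier results of these data known. Named were the members, CG9005, per immune list every called gene and up to 3 more with the smallest p, called neighbours and the nearest tested gene on each side, and the 6 non-members most alike in deviation. The other Bomanin genes, the marker lists and the marker genes named were added for context, the named marker genes after their values were seen. Alternatives were another pseudocount, other filters, quantile normalisation, median centring, voom, a replicate block, the stage field as a covariate, no trend, and leaving out each library. The sources used here hold no sequences of these genes, so none is shown.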

Additional observations from a re-analysis of the deposited data

Results flagged for a closer look

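In 76 groups of 4 libraries, for the 38 genes named by rule, 1 library stood apart from the other 3 in 16 cases by Dixon's criterion, and chance alone flags about 1 group in 20. That rate does not hold for CG42673, fon, Cog3, RpL15 and CG13641, which were named because their deviations follow those of the members, so a high library shared with the members came with that choice. Nor does it hold where 3 libraries are at 0, as in WT for IM23, CG15065, CG13641 and PGRP-SD. There any value above 0 is flagged, so the 16 cases cannot be set against that rate. Among the members the libraries apart were WT replicate 1 for IM3 at 14.3 TPM and for CG16713 at 14.0 TPM, and WT replicate 3 for IM23 at 2.17 TPM. WT replicate 1 was also the high library for CG15065 at 12.6 TPM, CG13641 at 3.17 TPM, fon at 22.3 TPM, Cog3 at 16.4 TPM and PGRP-SB1 at 3.42 TPM. Mutant replicate 2 was high for CG42673 at 3.64 TPM and for RpL15 at 8064 TPM. Elsewhere, the library apart was mutant replicate 1 for Act57B at 18.3 TPM, mutant replicate 3 for spz at 2.81 TPM, WT replicate 2 for GstE1 at 4.78 TPM, WT replicate 4 for PGRP-SD at 3.58 TPM, and WT replicate 3 for dome at 33.4 TPM and sbb at 81.6 TPM. The causes were not tested.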

How the results depend on the processing

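The members' median log2 difference of 3.10 was 4.62 with a pseudocount of 0.1 TPM and 4.75 with voom, and 2.91 to 3.35 with each library left out. The median r between members, 0.0495, was -0.0636 without mutant replicate 2, and -0.0636 to 0.272 over the libraries left out. Against 131 genes called, there were 76 with no filter, 75 with a filter of 10 TPM, 52 with the replicate block, 9 with the stage field as a covariate, and 71 to 110 without 1 library. The fit with the stage field also moved the median of all tested genes to -0.18. Against 2 immune list genes called (casp and TotF), there was 1 with no filter, with quantile normalisation and with median centring, 0 with a pseudocount of 0.1 TPM, voom, the replicate block, the stage field and no trend, and 0 to 1 without 1 library. Of the 8 members, 2 passed with a pseudocount of 0.1 TPM or no filter, 3 with the replicate block or no trend, 0 with voom or the stage field, and 2 to 6 without 1 library. Deviations of same-numbered libraries had correlations of only -0.15 to 0.08, and 2 of 8 libraries were closest to their own number. No pairing was seen, but this check cannot tell whether libraries were collected or prepared in pairs. Causes of these changes were not tested. Depth limits the WT levels, as 6 of the 8 members had at most 66 reads in any WT library.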
